A study of Mus musculus with 10 samples.

Results

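CpG-dense promoters of the mouse are mostly either unmethylated or, at a smaller number of genes, largely methylated. The runs described here are those in between. A run was a stretch of 10 or more CpGs of the table with gaps of no more than 100 b, both strands of a CpG counted once, on an autosome and overlapping the window from 1000 b upstream to 100 b downstream of an annotated transcription start site. Of 9044 such runs, 8378 (92.6%) had a mean level under 15% over the 10 pools, 420 (4.64%) had 50% or more, and 246 (2.72%) lay from 15% to under 50%. These 246 partly methylated promoters were selected on the levels themselves, so their level is a description. They held 4034 CpGs, or 5749 cytosines, of the 1348062 cytosines of the table on chromosomes 1 to 19, X and Y.

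Prospermatogonia are the fetal male germ cells. Their DNA was measured by reduced representation bisulfite sequencing (RRBS), which reads methylated cytosine as C and unmethylated cytosine as T in CpG-rich restriction fragments. There were 5 control and 5 arsenic pools. The pregnant dams were C3H/HeN mice that drank tap water (control) or, from mid-gestation on, tap water with sodium arsenite (arsenic). Each pool combined testes of many male embryos of late gestation, and its cells were enriched with magnetic beads for the surface antigen CD90.2 (Thy1.2), which is not restricted to germ cells. On chromosomes 1 to 19, X and Y, the control pools had 44207245 to 60504881 cytosine calls in all and the arsenic pools 56551174 to 66570870. An arsenic pool of lower depth had been excluded by the authors and was not analysed here.

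Methylation of a CpG-dense promoter usually goes with a silent gene. Imprinted genes are the textbook case of a promoter region methylated on the allele of a single parent in body cells, and both parental patterns are erased in early fetal germ cells, after which the paternal pattern is laid down in prospermatogonia. Promoters of many germline genes are methylated in body cells and lose that methylation in germ cells. A promoter can also be partly methylated because an unmethylated core borders on methylated flanks. A pool gives an average over DNA molecules, so a level between both extremes can be a mix of cells, of alleles or of CpGs.

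The runs below are printed from the GRCm38 reference (mm10), plus strand, 5′ to 3′, with the CpGs measured in the table in capitals. Of the imprinted promoters, Snrpn (chr7:60005042-60005229), Peg10 (chr6:4747355-4747490), Plagl1 (chr10:13090685-13090814) and the Gnas run (chr2:174327859-174328029) are shown because they had even levels from CpG to CpG or large spread between pools.

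Snrpn: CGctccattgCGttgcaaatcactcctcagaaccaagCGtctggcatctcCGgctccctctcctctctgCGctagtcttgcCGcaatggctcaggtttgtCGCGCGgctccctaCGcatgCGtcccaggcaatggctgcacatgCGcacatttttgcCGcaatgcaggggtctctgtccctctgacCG
Peg10: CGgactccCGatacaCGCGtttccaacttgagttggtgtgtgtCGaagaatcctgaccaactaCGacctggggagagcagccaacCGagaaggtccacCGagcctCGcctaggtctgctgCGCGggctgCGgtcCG
Plagl1: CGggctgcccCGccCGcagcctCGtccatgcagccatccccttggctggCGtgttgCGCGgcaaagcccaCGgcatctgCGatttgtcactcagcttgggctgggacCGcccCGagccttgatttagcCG
Gnas: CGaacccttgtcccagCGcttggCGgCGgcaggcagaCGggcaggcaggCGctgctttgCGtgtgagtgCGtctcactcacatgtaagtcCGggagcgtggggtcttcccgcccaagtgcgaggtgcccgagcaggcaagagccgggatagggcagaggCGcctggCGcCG

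Hormad2 (chr11:4440887-4441140) and Meioc (chr11:102665593-102665678) are the meiotic genes of the germline list among the partly methylated promoters, and both runs are short enough to be shown whole.

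Hormad2: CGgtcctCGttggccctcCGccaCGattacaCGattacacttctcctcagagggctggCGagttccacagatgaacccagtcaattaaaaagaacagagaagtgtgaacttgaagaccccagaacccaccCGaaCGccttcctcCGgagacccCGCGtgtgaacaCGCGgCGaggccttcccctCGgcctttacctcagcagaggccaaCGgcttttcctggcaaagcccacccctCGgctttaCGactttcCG
Meioc: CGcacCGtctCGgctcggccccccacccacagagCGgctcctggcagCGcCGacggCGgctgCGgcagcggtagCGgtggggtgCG

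Wfdc10 (chr2:164655483-164655634) is shown because it had the largest differences between its own CpGs. Trmt112-ps1 (chr5:91737963-91738098) and Gp1bb (chr16:18622702-18622958) are shown for their large differences between the groups, described below.

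Wfdc10: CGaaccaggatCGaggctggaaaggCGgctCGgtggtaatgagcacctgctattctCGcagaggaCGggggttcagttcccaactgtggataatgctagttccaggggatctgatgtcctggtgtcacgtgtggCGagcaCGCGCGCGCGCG
Trmt112-ps1: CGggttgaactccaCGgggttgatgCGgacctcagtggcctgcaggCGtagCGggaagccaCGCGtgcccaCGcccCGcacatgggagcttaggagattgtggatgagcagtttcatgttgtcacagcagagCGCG
Gp1bb: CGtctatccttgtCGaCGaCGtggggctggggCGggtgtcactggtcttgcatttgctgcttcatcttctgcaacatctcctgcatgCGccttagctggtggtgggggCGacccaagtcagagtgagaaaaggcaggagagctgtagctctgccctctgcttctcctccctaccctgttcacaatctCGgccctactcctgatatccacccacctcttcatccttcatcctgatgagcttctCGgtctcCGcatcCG

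By annotation, 136 of the 246 runs (55.3%) were at a protein-coding gene, 64 (26.0%) at a long noncoding RNA or other noncoding transcript, 34 (13.8%) at a pseudogene and 12 (4.88%) at a small RNA gene. In the other tiers, protein-coding genes made up 89.0% of the runs under 15% and 27.9% of those at 50% or more, and pseudogenes made up 0.752% and 41.0%. Of the 246 runs, 104 carried a gene symbol of the provisional kind (Gm numbers and Rik clones). The runs counted 244 different genes, since Rbmxl2 and Gm9229 each had 2 runs. A run had a median of 13 CpGs over 312.5 b. Of the runs, 94 spanned the start by which they were named and 122 lay wholly upstream of it. That start was the nearest protein-coding one overlapped, or otherwise the nearest of any gene.

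The medians of GC content and of the CpG ratio were nearer to those of the methylated than of the unmethylated tier. Median GC content was 56.8%, against 64.2% in runs under 15% and 54.6% in runs of 50% or more. The median ratio of observed to expected CpGs was 0.645, against 0.877 and 0.692. Soft-masked repeat took more than 50% of the run in 13 runs (5.29%), against 0.489% and 14.1%. A search on both strands for 3 hexamers took the 300 b around the centre of each run. The E-box CACGTG was found in 8.13% of the partly methylated promoters and in 8.08% of all 9044. TCCCGC, the core bound by E2F factors, was found in 21.1% and 39.3% of them. The core TGCCGC, which the factor ZFP57 binds when methylated, was found in 15.4% and 25.2% of them, and in 6 of the 10 imprinted runs. Matches of the last hexamers on opposite strands can share bases, and a match is a description only.

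Of the gene lists, the imprinted genes gave the most partly methylated promoters. Of the imprinted genes with a CpG-dense run at a start, 11 of 17 with maternal methylation and 1 of 4 with paternal methylation were partly methylated, at 10 runs, and none was at 50% or more. The runs were at Mcts2, Nnat, Nespas, Gnas, Peg10 and Sgce (a shared run), Snrpn and Snurf (a shared run), Mkrn3, Plagl1, Zrsr1 and Meg3. The Nespas run is nearest to the start of Gm27899. Their lists were chosen for imprinting and with earlier results of these data known.

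Mcts2 and Zrsr1 are retrogenes, Nnat encodes neuronatin, Peg10 is a retrotransposon-derived gene of the placenta, and Plagl1 encodes a zinc finger factor. Mcts2 had levels of 44.9, 44.6, 53.8, 42.2 and 45.4% in control pools 1 to 5 and 30.2, 43.4, 56.2, 43.4 and 49.7% in arsenic pools 1 to 5. Nnat had 37.1, 39.7, 46.2, 39.7 and 45.9% in the control pools and 32.8, 36.7, 54.1, 47.2 and 58.8% in the arsenic pools. Both promoters were lowest in arsenic pool 1, and the groups overlapped.

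Zrsr1 stood at 39.1, 36.02, 31.2, 45.1 and 35.6% in the control pools and 36.9, 32.8, 44.9, 55.2 and 44.1% in the arsenic pools. Peg10 stood at 32.5, 45.5, 42.3, 44.8 and 30.3% in the control pools and at 20.5, 39.1, 34.9, 34.3 and 52.8% in the arsenic pools. Peg10 was lowest in arsenic pool 1 and highest in arsenic pool 5, whereas Zrsr1 was lowest in control pool 3 and highest in arsenic pool 4.

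Plagl1 had the largest spread between pools of all 246 runs. Its level was 10.5, 6.59, 46.5, 46.0 and 26.2% in the control pools and 27.0, 45.1, 35.0, 15.5 and 76.5% in the arsenic pools, an SD over the 10 pools of 21.04 points at 16.4 to 41.6 reads per cytosine. The SD that counting alone gives was 9.11 points if all CpGs of the run are taken to lie on the same reads. The low and the high pools were thus spread over both groups (limma, unadjusted p = 0.223). Limma is a moderated linear model, used here on each pool's log2 odds of a methylated read, with arsenic minus control as the effect.

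Gnas, which encodes a G protein subunit, has several starts, and the run was 176 b downstream of one of them. It read 34.7, 28.02, 16.4, 41.4 and 58.3% in the control pools and 19.4, 44.6, 40.3, 44.7 and 62.6% in the arsenic pools. A second CpG-dense run at another Gnas start was in the tier under 15%. Nespas, the antisense RNA of the same cluster, read 25.9, 35.8, 32.8, 28.04 and 29.6% in the control pools and 13.1, 28.7, 41.1, 32.2 and 36.9% in the arsenic pools. In both runs the groups overlapped throughout.

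Snrpn, a gene of the Prader-Willi region, had levels of 26.1, 26.4, 30.9, 38.0 and 45.4% in the control pools and 20.3, 30.7, 43.9, 40.7 and 28.2% in the arsenic pools. Mkrn3, a ring finger gene of the same region, had lower and closer levels, from 16.6 to 23.7% in the control pools and from 19.9 to 24.6% in the arsenic pools. Meg3, the noncoding RNA of the paternally methylated Dlk1 domain, had 38.3, 28.6, 25.5, 23.4 and 25% in the control pools and 22.8, 24.8, 32.0, 26.6 and 38.1% in the arsenic pools. The Snrpn and Meg3 groups overlapped.

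**Figure D1:**
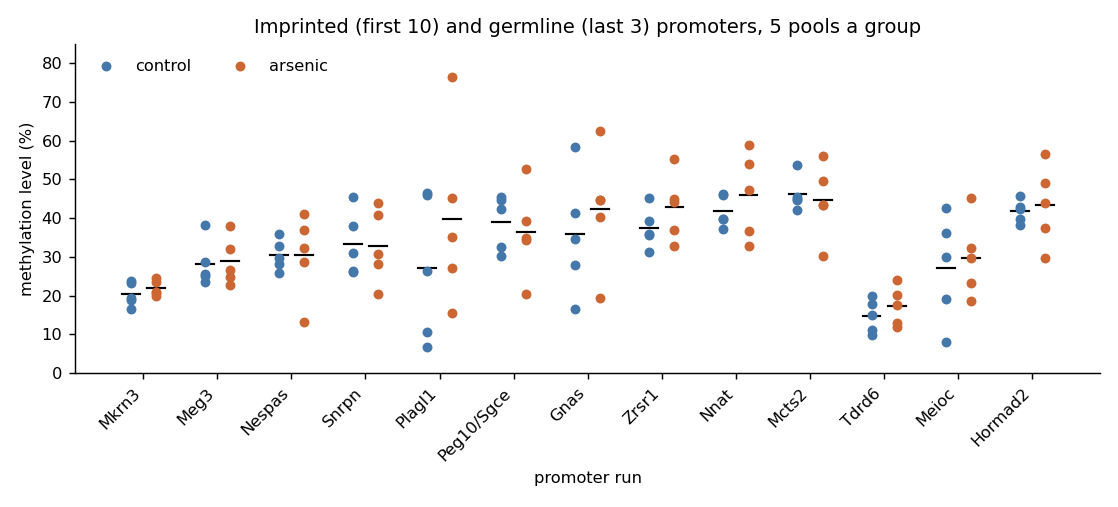
Methylation level in percent of the 10 imprinted and 3 germline promoter runs in the 5 control (blue) and 5 arsenic (orange) pools, each point a pool and each bar a group mean. The groups overlap in every run, and Plagl1 runs from 6.59 to 76.5%.

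The imprinted promoters had even levels along the run. The SD between the CpGs of a run, each CpG taken over all pools, had a median of 4.28 points in the 10 imprinted runs (1.80 to 7.59) and 12.9 points in the other 236 (2.58 to 37.9). Peg10, Plagl1 and Nnat had the 3 smallest values of all 246 runs, at 1.80, 1.88 and 2.15 points, and 5 of the 10 smallest belonged to imprinted runs. All CpGs lay from 20 to 60% in 9 of the 10 imprinted runs and in 21 of the other 236. CpGs of a short run lie on the same reads, and imprinted runs were shorter, with a median of 228.5 b against 315 b. Their median coverage was 45.1 reads per cytosine, against 36.8.

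At the other end, the partial level was a mean over CpGs of high and of low level. The mice were C3H/HeN, and strain differences from the reference were not checked. A C to T difference would read as an unmethylated cytosine. A CpG under 20% and a CpG over 60% were both present in 63 of the 246 runs. Wfdc10, a gene of the whey acidic protein family, had 7 CpGs at 63.2 to 79.5%, at positions -563 to -429 b from the start, followed by 6 CpGs at 0 to 2.48%, at -423 to -413 b. These 6 are the stretch of adjacent CG pairs at the end of the printed run, a simple repeat, so their low level is uncertain. Eid2b, a relative of an inhibitor of differentiation, had 32.7 to 63.9% at -359 to -323 b and 0.290 to 6.86% at -242 to -82 b. Aqp5, a water channel gene, had CpGs from 0 to 70.2%, the low ones around the start and the high ones downstream. Their SDs between CpGs were 37.9, 29.0 and 27.1 points, the 3 largest of the 246 runs.

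**Figure D2:**
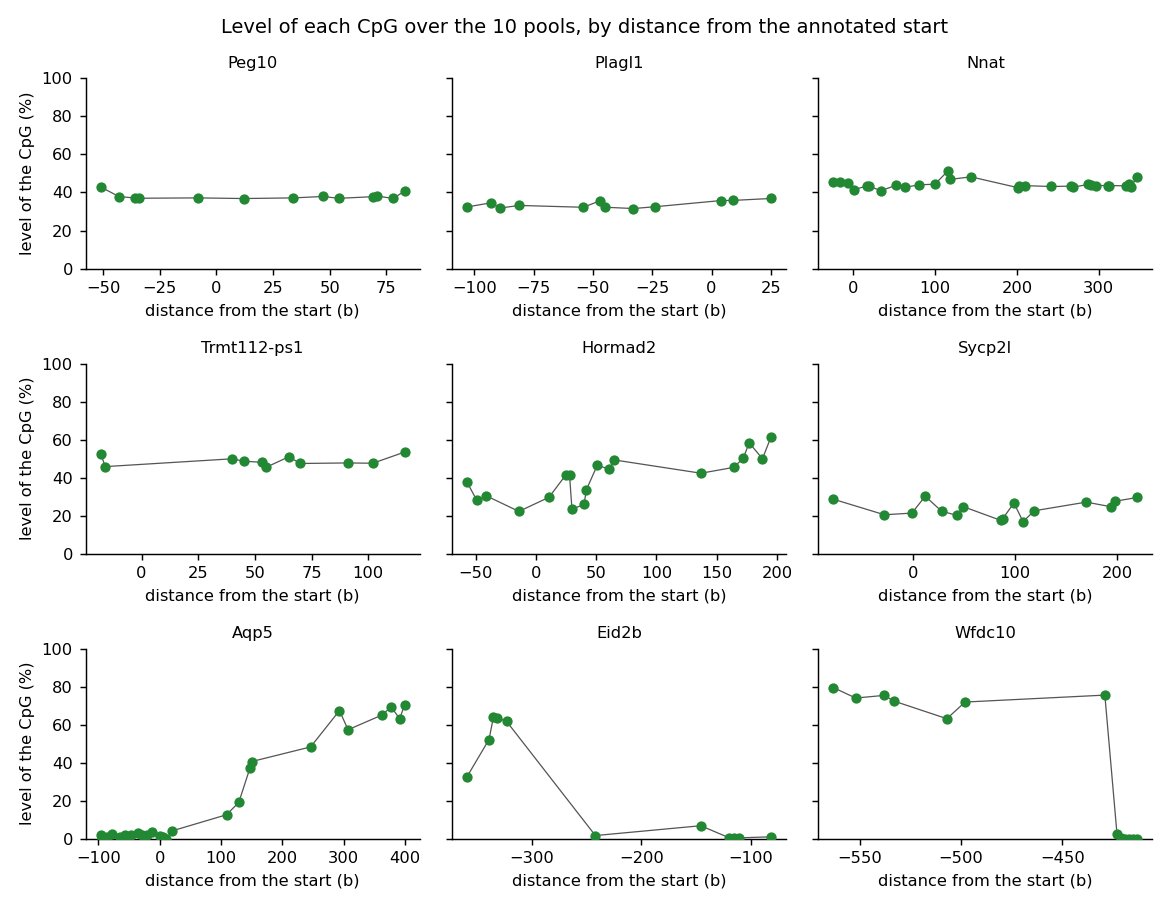
Level of each CpG in percent over the 10 pools against its distance from the annotated start in bases, for 9 runs. Peg10, Plagl1, Nnat and Trmt112-ps1 are nearly even, while Aqp5, Eid2b and Wfdc10 step between CpGs near 0% and CpGs over 60%.

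Germline genes were spread over all 3 tiers. Of the 30 listed germline genes with a CpG-dense run at a start, 9 were under 15%, 3 were partly methylated and 18 were at 50% or more. Over all CpG-dense promoter runs these shares were 92.6, 2.72 and 4.64%. The lowest of the 18 were Msh4 at 51.5% and Dazl at 52.0%, close to the bound. Runs of fewer than 10 CpGs were not counted. Hormad2 encodes a protein of the meiotic chromosome axis, Meioc a factor that extends meiotic prophase, and Tdrd6 a protein of the chromatoid body of spermatids. Hormad2 had levels of 45.8, 42.9, 38.1, 39.9 and 42.3% in the control pools and 29.7, 49.0, 37.6, 44.0 and 56.6% in the arsenic pools. Meioc had 42.5, 19.09, 8.09, 36.1 and 30.0% in the control pools and 32.2, 29.7, 18.5, 45.2 and 23.4% in the arsenic pools, at 10 to 47.4 reads per cytosine. Its mean was 28.5%, while other runs at Meioc, with 9 and 4 CpGs, had means of 54.3 and 46.0%. Tdrd6 ranged from 9.73 to 19.95% in the control pools and from 11.8 to 24.1% in the arsenic pools. Hormad2 was widest in the arsenic pools, with its lowest value in arsenic pool 1 and its highest in arsenic pool 5, and all 3 overlapped between the groups.

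Some other runs at genes used in germ cells were picked after their values were seen. Sycp2l, which encodes a synaptonemal complex protein, had a mean of 23.0%, and Mcmdc2, needed for meiotic recombination, had 31.6%. Papolb, a poly(A) polymerase gene of the testis, had 31.6%, and Catsperg1, a subunit gene of the sperm calcium channel, had 15.7%. Rbmxl2, an RNA-binding protein gene of the testis, had 2 runs at 20.03 and 26.7%. Their SDs over the pools were 5.77, 9.75, 8.58, 4.19, 13.2 and 6.47 points.

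The germline list served as a check of the labelled cell type. Promoters of germline genes are known to be unmethylated in germ cells after the erasure, but Dazl stood at 52.0% (54 CpGs), Ddx4 at 65.0% (16 CpGs) and Mael at 64.8% (23 CpGs) over the 10 pools. Maternally methylated imprinted promoters, which are also known to be erased in these cells, had the levels given above. These runs were thus not in the unmethylated state. Others of both lists were: 9 of the 30 germline genes were under 15%, 7 of the 17 maternally methylated imprinted genes had a run under 15%, and a second, shorter Dazl run (8 CpGs) stood at 1.75%. The mean over the 54 runs of at least 3 CpGs at starts of listed germline genes, without the 3 partly methylated promoters, was 36.3, 34.4, 38.2, 38.2 and 38.0% in the control pools and 30.6, 38.9, 39.9, 41.0 and 47.4% in the arsenic pools. It was lowest in arsenic pool 1 and highest in arsenic pool 5. In bulk DNA, fewer molecules of a cell type and a lower level per molecule cannot be told apart.

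Of the markers of other testis cells, Fshr, the receptor gene of follicle-stimulating hormone in Sertoli cells, was partly methylated. Its levels were 42.3, 59.0, 56.0, 42.0 and 48.3% in the control pools and 42.4, 39.0, 47.3, 67.7 and 44.5% in the arsenic pools, with overlapping groups. The other 5 Sertoli genes with a CpG-dense run were under 15%, as was the single such gene of the blood list and of the stroma and endothelium list, and the Leydig list had none. Over runs of at least 3 CpGs that were not partly methylated promoters, the mean level per pool was 2.09 to 3.96% for the Sertoli list (13 runs), 5.98 to 12.5% for Leydig (3 runs), 1.15 to 4.06% for stroma and endothelium (7 runs) and 0.812 to 5.23% for blood (3 runs). A promoter level marks no cell type alone.

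The remaining lists had no partly methylated promoter. All 10 listed genes of spermatogonial stem cells and prospermatogonia with a CpG-dense run were under 15%, as were the 11 of the methylation machinery and the 19 of other Polycomb target factors. Of the pluripotency genes 9 were under 15% and Zfp42 was at 50% or more. By name, 3 zinc finger genes (Zfp473, Zbtb38 and Zfp469) of 180 and 3 genes of the developmental factor families (Foxa3, Foxk1 and Foxi1) of 100 were partly methylated, and none of 20 Hox, 5 protocadherin, 17 histone or 2 olfactory receptor runs.

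Some runs were covered far more deeply than the rest, and reads at repeated sequences can come from many loci. Median coverage was 37.4 reads per cytosine over the 246 runs, and 6 runs had more than 100. Gm10801 had 39285 reads per cytosine and lay from 42.4 to 45.2% in the control pools and from 43.5 to 51.8% in the arsenic pools. Gm42418, the run with most CpGs (151), had 1001 reads per cytosine and was at 14.6 to 16.9% in the control pools and 11.6 to 19.4% in the arsenic pools. The 5S ribosomal RNA gene n-R5s149 and Sfi1, a centrosomal protein gene, had 129 and 299 reads per cytosine. Their arsenic levels were 19.5, 23.1, 26.6, 28.2 and 29.2% and 35.1, 47.5, 42.6, 48.7 and 51.9%. In both, arsenic pool 1 was the lowest of the arsenic pools and arsenic pool 5 the highest. These deep runs were picked after their values were seen. The runs with the next largest numbers of CpGs were the pseudogene Gm49697 (65 CpGs, mean 18.1%) and Drd5, a dopamine receptor gene (59 CpGs, mean 29.1%).

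The design asked first whether levels differed after gestational arsenic exposure. The mean over the 246 runs was 29.9, 29.8, 29.9, 30.2 and 29.4% in control pools 1 to 5 and 24.3, 30.2, 31.6, 33.0 and 36.7% in arsenic pools 1 to 5. The group means were 29.8% ± 0.269 and 31.2% ± 4.55 (SD, n = 5). The difference of 1.34 points was under the SD of the arsenic pools. Without arsenic pool 5 it was -0.0458 points, and without arsenic pool 1 it was 3.07 points. Arsenic pool 1 lay below all control pools and the other arsenic pools above them, arsenic pool 2 only just. The control pools lay within 1 point of each other. Of the 246 runs, 162 had a higher mean in the arsenic group and 84 a lower one, with a median difference of 1.21 points. Over all 119729 runs of at least 3 CpGs, 42.2% were higher in the arsenic group and the median difference was -0.419 points. In the 420 promoter runs of the methylated tier the median difference was 1.63 points, larger than in the 246 runs. Of the 1309 partly methylated runs of the same density away from starts, 674 were higher, with a median difference of 0.187 points. A higher median in the arsenic group was thus not limited to the 246 runs.

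In a limma test on every run, none of the 246 passed an adjusted p under 0.05 (background 0% of 119729 runs), and the smallest adjusted p was 0.708. Without adjustment 9 of the 246 (3.66%) had p under 0.05, against a background of 6.94%. Of these, 2 were lower in the arsenic group (0.813%, background 4.82%) and 7 higher (2.85%, background 2.11%). By an overdispersion F test 12 of the 246 had an unadjusted p under 0.05 (4.88%), against 7.48% of all runs. The shares in either direction were thus below or near those of all runs.

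The groups did not overlap in 2 runs that were lower in the arsenic group (0.813%, background 1%) and in 1 run that was higher (0.407%, background 0.323%). Gp1bb, a platelet glycoprotein gene, had levels of 42.1, 39.2, 48.2, 49.0 and 38.7% in the control pools and 33.2, 24.6, 28.6, 38.2 and 25.9% in the arsenic pools. The difference was -13.4 points (limma log2 ratio -0.84 ± 0.26 SE, unadjusted p = 0.00657, adjusted p = 0.708). The run lies 427 b upstream of the start, and its highest arsenic pool was just below its lowest control pool.

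The run at chr19:5844514-5844822, named by the nearest start, that of the short noncoding RNA Gm27505, also overlapped the windows of Frmd8os and Gm27533. Its levels were 54.2, 55.5, 56.9, 56.9 and 57.0% in the control pools and 32.0, 37.7, 50.9, 41.2 and 52.9% in the arsenic pools. The difference was -13.2 points (limma, unadjusted p = 0.0151, adjusted p = 0.708). The control pools were close together and the arsenic pools widely spread below them.

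Cep250, a gene of centrosome cohesion, had 30.4, 24.3, 24.8, 24.9 and 30.6% in the control pools and 38.3, 48.1, 33.3, 40.5 and 37.3% in the arsenic pools. The difference was 12.5 points (limma log2 ratio 0.81 ± 0.24 SE, unadjusted p = 0.00540, adjusted p = 0.708). Of the run, 69.7% was soft-masked repeat, and the single CpGs ranged from 0.444 to 66.0%, so the run holds CpGs of low and of high level.

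Trmt112-ps1, a processed pseudogene of a methyltransferase subunit, had the largest difference of the 246 runs. Its levels were 23.9, 15.7, 56.7, 44.1 and 38.5% in the control pools and 57.0, 66.7, 46.1, 71.8 and 68.2% in the arsenic pools, a difference of 26.2 points (limma log2 ratio 1.66 ± 0.50 SE, unadjusted p = 0.00657, adjusted p = 0.708). Arsenic pool 3 lay below the highest control pool, so the groups overlapped. Its SD over the pools was 18.9 points, where counting alone gives 9.27 with all CpGs on the same reads. As a processed pseudogene it can share reads with its parent gene, so the value is uncertain.

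A second run on the same chromosome, 29643 b away at the noncoding RNA Gm28271, was also higher in the arsenic group, with 46.8, 55.3, 40.7, 32.8 and 35.8% in the control pools and 50.4, 61.3, 52.7, 52.3 and 49.7% in the arsenic pools (limma, unadjusted p = 0.0452, adjusted p = 0.717). It lost p under 0.05 for 7 of the 10 pools when each was left out in turn. The neighbourhood of both was noticed after their values were seen. Stpg2, a sperm-tail protein gene, had 11.1, 15.6, 14.7, 8.49 and 10.03% in the control pools and 17.8, 24.4, 24.0, 13.4 and 26.3% in the arsenic pools (difference 9.19 points, limma, unadjusted p = 0.00821, adjusted p = 0.708). In Stpg2 arsenic pool 4 was below control pools 2 and 3, and the other 4 arsenic pools were above all control pools.

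The remaining 3 at an unadjusted p under 0.05 were higher in the arsenic group by smaller amounts. Misp, a spindle positioning gene, differed by 8.73 points, Foxk1, a forkhead factor gene, by 7.69 points and Rnf207, a ring finger gene, by 6.12 points, with limma unadjusted p = 0.0260, 0.0434 and 0.0250. All 3 lost p under 0.05 when certain single pools were left out, Foxk1 for 7 of the 10 pools.

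**Figure D3:**
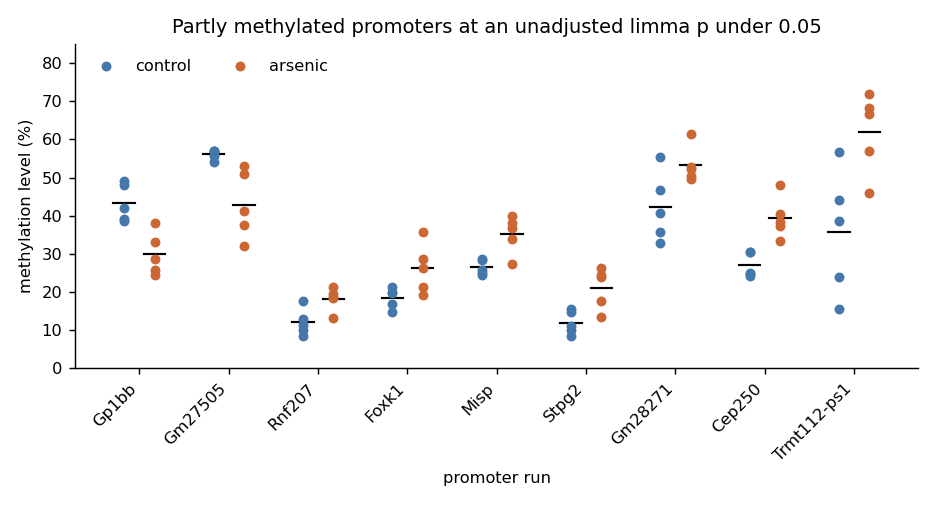
Methylation level in percent of the 9 runs at an unadjusted limma p under 0.05 in the 5 control (blue) and 5 arsenic (orange) pools, each point a pool and each bar a group mean. Only Gp1bb, Gm27505 and Cep250 have groups that do not overlap, and Trmt112-ps1 has the largest difference, 26.2 points.

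Single cytosines were tested in the manner of the study, by a logistic regression that takes reads as independent, calling cytosines at q up to 0.01 that differed by 10 points or more. Of the 5749 cytosines in the partly methylated promoters, 79 were lower in the arsenic group (1.37%, background 1.48%) and 97 higher (1.69%, background 0.784%). This test takes no account of the spread between pools. On the summed reads of each run the same kind of test gave an unadjusted p under 0.05 at 158 of the 246 runs (64.2%) and at 43.6% of all runs.

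The second question was whether the partly methylated promoters moved together over the pools. They did so mainly through 2 arsenic pools. Arsenic pool 1 was the lowest of the 10 pools in 95 of the 246 runs and the highest in 1. Arsenic pool 5 was the highest in 104 and the lowest in 5. No other pool was highest in more than 32 runs or lowest in more than 30. Arsenic pool 5 was above arsenic pool 1 in 225 of the 246 runs, and in 49 runs, among them Peg10, Nnat, Hormad2 and Drd5, these pools were the lowest and the highest.

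Pearson's r over the 10 pools between a pair of runs had a median of 0.243, and 74.4% of the 30135 pairs were positive. Within the 5 control pools the median was -0.0129, with 49.3% of pairs positive, and within the 5 arsenic pools it was 0.471. Without arsenic pools 1 and 5 it was 0.0468, with 54.5% of pairs positive. The first principal component of the centred levels held 30.8% of the variance, with scores of -109 in arsenic pool 1 and 141 in arsenic pool 5, and from -26.6 to 44.8 in the other 8 pools. The typical pair was thus close to uncorrelated over the other 8 pools and over the control pools alone.

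**Figure D4:**
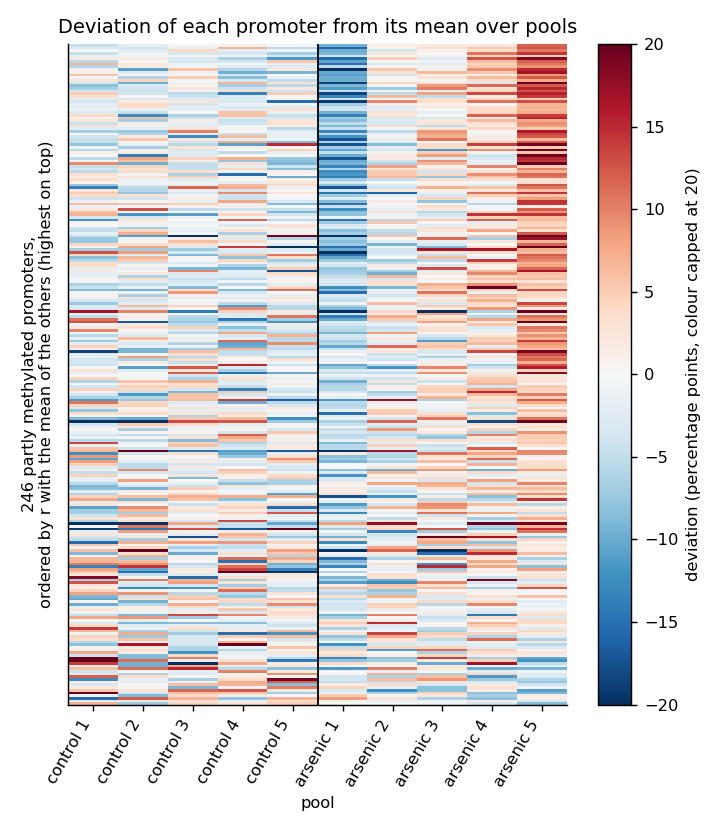
Deviation of each of the 246 runs (lines, ordered by r with the mean of the other runs) from its mean over the 10 pools (columns), in percentage points, red above and blue below. Most runs are blue in arsenic pool 1 and red in arsenic pool 5, and the control columns show no shared colour.

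The movement was also present outside these promoters. In the 1309 partly methylated runs of the same density away from starts, the median r was 0.161, and in the 420 promoter runs of 50% or more it was 0.320. Without arsenic pools 1 and 5 these were 0.0263 and 0.0740. The mean of the runs away from starts was 33.6 to 35.1% in the control pools and 27.9, 33.1, 35.7, 35.4 and 38.0% in the arsenic pools. The promoter runs of 50% or more had a mean of 65.5 to 67.8% in the control pools and 59.2, 67.6, 68.3, 71.9 and 77.0% in the arsenic pools. When each pool's mean over the runs away from starts was subtracted, the median r of the 246 runs was 0.0394 and the first component held 20.9% of the variance. The germline promoters given above had the same order of arsenic pools 1 and 5, and their part in the result was not tested.

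**Figure D5:**
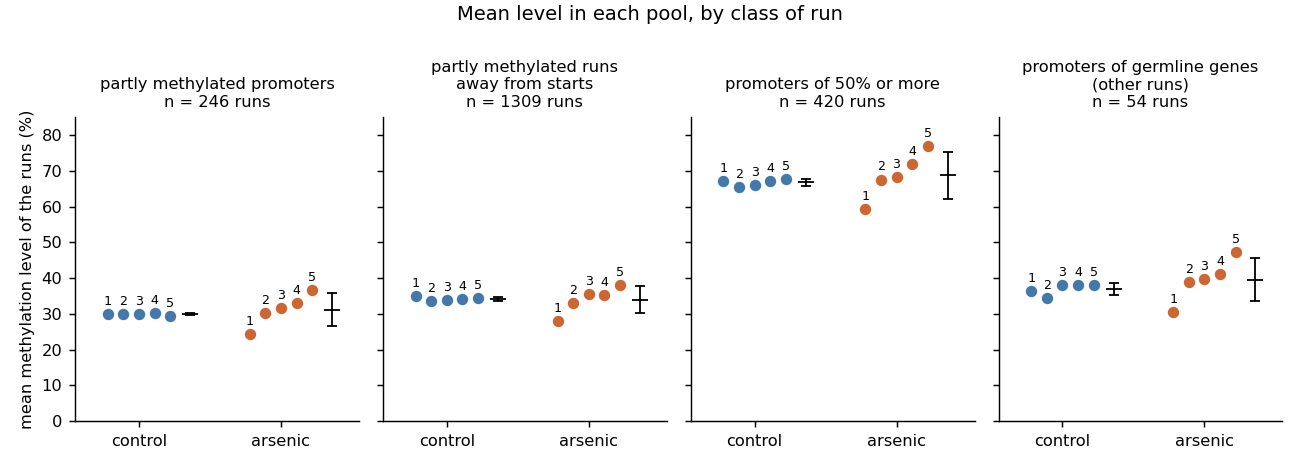
Mean methylation level in percent of the runs of each class in the 5 control (blue) and 5 arsenic (orange) pools, each numbered point a pool, with group mean ± SD beside it. The classes are the partly methylated promoters, partly methylated runs away from starts, promoters of 50% or more and promoters of germline genes, and in these 4 the control pools are close together, arsenic pool 1 is the lowest and arsenic pool 5 the highest.

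By annotation, the median r was 0.344 in the 34 pseudogene runs, 0.292 in the 12 small RNA runs, 0.244 in the 64 noncoding runs and 0.210 in the 136 protein-coding runs. It was 0.336 in the 10 imprinted runs, and 0.0758 without arsenic pools 1 and 5. The pseudogene runs had a mean of 24.2% in arsenic pool 1 and 43.5% in arsenic pool 5, against 23.6% and 34.4% in the protein-coding runs. Pairs share pools, and runs are not independent, so these are descriptions.

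Single runs differed in how closely they followed the rest. Pearson's r over the 10 pools with the mean of the other 245 runs had a median of 0.540 and was above 0 in 228 runs. Ipcef1, whose product interacts with an exchange factor, had the highest, at 0.95, with 34.3, 36.9, 39.3, 37.8 and 38.5% in the control pools and 29.1, 40.0, 40.8, 41.0 and 50.6% in the arsenic pools. The next were the noncoding Gm1070 and Gm29295 and the gene Togaram2, at 0.92, 0.91 and 0.89. The lowest was at Lrrc15, a leucine-rich repeat membrane protein gene, at -0.51, where levels were 21.8, 7.94, 19.07, 17.4 and 19.8% in the control pools and 15.4, 14.9, 15.5, 12.03 and 6.26% in the arsenic pools. S1pr3, a sphingosine phosphate receptor gene, Gm40849 and Il12a, a cytokine subunit gene, followed at -0.37, -0.33 and -0.29. Lrrc15 was thus lowest in arsenic pool 5, the pool with the highest mean over the 246 runs.

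The spread over the 10 pools had a median SD of 5.91 points and ran from 1.82 points at Stmn4, a stathmin gene, and 1.98 at Hpn, a serine protease gene, to 21.04 at Plagl1. After Plagl1 and Trmt112-ps1 came the pseudogene Gm9299 at 17.3 and Gm17244 at 16.3 points. Gm9299 had 66.4, 59.6, 35.5, 54.2 and 51.7% in the control pools and 23.4, 54.0, 28.9, 43.5 and 79.7% in the arsenic pools. Gm17244 had 52.0, 75.4, 30.8, 34.5 and 28.8% in the control pools and 25.04, 62.2, 40.7, 49.6 and 55.2% in the arsenic pools. Both had wide and overlapping groups.

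Counting error limits these comparisons. If all CpGs of a run are taken to lie on the same reads, the SD over pools was at or below the counting SD in 171 of the 246 runs and its variance was over 2 times the counting variance in 15. If the reads of each CpG are taken as separate, which gives smaller counting SDs, the SD over pools was above the counting SD in all 246 runs and the variance over 2 times in 241. The CpGs that a read covers are not given in the table, so both cases are given. In 164 of the 246 runs the SD was larger among the arsenic than among the control pools (medians 6.33 and 5.18 points), against 54.6% of all runs. Without arsenic pools 1 and 5 it was larger in 110 runs. That setting was chosen after the values were seen and sets fewer arsenic pools against all 5 control pools. Its share over all runs was not computed.

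At the bounds of the selection, Lrrc15 and Stmn4 were just inside at means of 15.01 and 15.03%, and Rbm7 and Gm10060 just outside at 14.96 and 14.8%. At the upper bound, Dpm1 and Gm9299 were inside at 49.7% each, and Tapbp and Mir5125 outside at 50.04 and 50.2%.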

How the data were processed

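The authors trimmed RRBS reads with Trim Galore 0.6.5, mapped them to mm10 with Bismark 0.22.3 and united CpG calls with methylKit 1.22.0, strands kept apart (tools and versions from the submitters' processing notes). The treatment of PCR duplicates and overlapping mates is not stated, and counting errors cover counting only. They were computed with all CpGs of a run on the same reads and with each CpG's reads taken as separate. The deposited table holds raw counts of all, methylated and unmethylated reads at each cytosine, with at least 10 reads in every pool. Samples were grouped by their titles, and each pool was a replicate. On chromosomes 1 to 19, X and Y, pools had 44207245 to 66570870 calls in all and a median coverage of 25 to 40 reads per cytosine.

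Starts were those of GENCODE M21 (basic set), and a run was named by the nearest protein-coding start it overlapped, or otherwise by the nearest gene. Its level was summed methylated reads over summed coverage. Limma 3.58.1 (R 4.3.3) on log2((methylated + 1)/(unmethylated + 1)) was fitted on all 119729 runs of at least 3 CpGs, with Benjamini-Hochberg adjustment, and was tested on simulated data. Its log2 ratio is arsenic over control. Python 3.11.15 was used otherwise. Of the table's cytosines on chromosomes 1 to 19, X and Y, 99.99% lay at a CpG of the GRCm38 reference. At most 1.69% of cytosines had identical counts in any pair of pools.

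The promoters and gene lists were chosen with earlier results of these data known. Named were all listed genes, the 4 largest falls and rises at an unadjusted p under 0.05, the 4 largest and 2 smallest SDs over pools, the 4 highest and 4 lowest correlations with the other runs, the 2 runs on each side of a bound, the 3 runs with most CpGs, and the 3 largest and 3 smallest SDs between CpGs. Others are said to be picked later. A result on a listed gene and a sequence are not reported here. Alternatives covered the test, pseudocount, coverage, gap, CpG minimum, window, starts, weighting, centring, the replicate number as a block and each pool left out.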

Additional observations from a re-analysis of the deposited data

Results flagged for a closer look

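In 80 tests of the named runs and of their mean, each of a group's 5 pools, Dixon's test at its 95% critical value set 2 single pools apart, where chance gives about 4. These were control pool 3 at Mcts2, at 53.8%, and arsenic pool 2 at Gm28271, at 61.3%. Neither pool stood apart in the mean over the 246 promoters.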

How the results depend on the processing

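The count of promoters at an unadjusted limma p under 0.05 was 9, and 158 by a binomial logistic regression, 1 with a coverage of at least 20, 3 with gaps of at most 50 b, 0 with at least 15 CpGs and 15 with a window of 2 kb upstream to 500 b downstream. The numbers of promoters themselves were 246 as reported and 82, 106, 93 and 391 in the last 4 of these settings, and 136 at protein-coding starts. With the replicate block the count was 8. Same-numbered pools did not deviate together (r from -0.0311 to 0.0567). The labels do not say whether the numbers pair pools, and these values cannot tell. Leaving out a single pool gave 7 to 18 (18 without arsenic pool 1).

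The count of promoters without overlap was 3, and 0 with a coverage of at least 20 or at least 15 CpGs, 1 with gaps of at most 50 b or unweighted CpG levels, and 9 without arsenic pools 1 and 5 together, a setting chosen after seeing the data. Leaving out a single pool gave 3 to 9.

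The median r of 0.243 was 0.157 (without arsenic pool 5) to 0.274 with a pool left out, and 0.0468 without arsenic pools 1 and 5. It was 0.0394 when centred on runs away from starts. The mean difference of 1.34 points ranged from -0.0458 to 3.07 points with a pool left out and from 0.851 to 1.79 points in all other settings. The causes were not tested. Single runs were followed through 16 alternatives of test, pseudocount, block, centring and pools left out. They were not followed through those of coverage, gap, CpG minimum, window, starts and weighting. Under centring only the difference was recomputed, and p was that of the main test. Cep250, Gp1bb, Gm27505, Stpg2 and Trmt112-ps1 kept their direction in all 16, and an unadjusted p under 0.05 in each refit. Foxk1 lost p under 0.05 in 9, Gm28271 in 8, Misp in 5 and Rnf207 in 4.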
